A study of Mus musculus with 11 samples.

Results

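The genes of the synaptic vesicle and of the SNARE fusion machinery were examined across 4 genotypes of mice with loss of Neurofascin 186, Ankyrin G or both. Members were taken by symbol, under a rule set with earlier results of these data known. They were the numbered Syt, Stx, Stxbp, Vamp, Cplx and Rims genes, Syn1 to Syn3, Sv2a to Sv2c and Rab3a to Rab3d. Snap25, Syp, Nsf, Unc13a, Bsn and Pclo were included too. Of 22609 genes listed, 70 had such a symbol, and 68 had at least 10 counts over the 11 libraries and entered the tests, which covered 17557 genes. The remaining pair, Stx19 and Vamp7, were listed at 0 counts in the table. No member passed the test in any of the 6 comparisons made. The values below give the level of each class of the machinery, how narrowly its change is bounded, and where the members did vary between libraries.

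Neurotransmitter release depends on a small set of proteins that act in sequence. Vesicles carry synaptophysin, synapsins, SV2 proteins, a VAMP (the vesicle SNARE) and a synaptotagmin, which senses calcium. RIM, Munc13, Bassoon and Piccolo organize the active zone and prime vesicles there, and the vesicle SNARE then zips with syntaxin and SNAP-25 on the plasma membrane under the control of Munc18 and complexin. NSF takes the spent complexes apart. Several families have a paralog typical of fast hindbrain and spinal synapses (Syt2, Vamp1, Cplx1) and another that prevails in the forebrain (Syt1, Vamp2, Cplx2).

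Polyadenylated RNA was sequenced in bulk from untreated mice on a mixed C57BL/6J;129 background, both sexes mixed, and the labels name postnatal day 30 in one field and 32 in another. By the study's methods the Control group (n = 3) carried floxed alleles of Nfasc, Ank3 (AnkG) or both, without Cre. The methods also name it as floxed at both genes, and the results text of the study writes that genotype with Pcp2-Cre. The knockout groups carried Pcp2-Cre with NfascFx/Fx (NFKO, n = 3), with AnkGFx/Fx (AnkGKO, n = 2) or with both floxed pairs (DKO, n = 3). Pcp2-Cre acts mainly in Purkinje cells, whereas bulk RNA comes from all cells of the tissue. Reads counted on genes came to 38.9 to 55.8 M per library (median 47.4 M), so that 3 counts, the floor used here, equal 0.0546 to 0.0780 CPM (counts per M counts of the library). This floor covers counting error only. Levels are TMM-normalized CPM throughout, that is, CPM after the libraries were scaled to one another with edgeR.

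The tissue is labelled cerebellar hemisphere, and its defining markers went against that label in most libraries. Pcp2, a Purkinje cell gene, was at 26.3 CPM in Control 1 and 28.3 CPM in NFKO 1 but at 0.0929 to 2.14 CPM in the other 9 libraries. Gabra6, a granule cell gene, was at 84.2 and 59.0 CPM in the same libraries and at 0.0186 to 4.41 CPM in the others. The summed level of 12 caudal Hox genes, which mark the caudal hindbrain and spinal cord rather than the cerebellum, was 395 to 615 CPM in all 11 libraries. Ank3 was at 353 to 375 CPM in Control and fell in AnkGKO (156 and 200 CPM, log2 fold change -1.03, SE 0.10, edgeR adjusted p = 0.00108) and in DKO (160 to 185 CPM, -1.07, SE 0.09, edgeR adjusted p = 0.000461). Nfasc was at 661 to 718 CPM in Control and 622 to 701 CPM in NFKO and was not called there (log2 fold change -0.08, SE 0.09, edgeR adjusted p = 0.969). In every DKO library Nfasc was below all NFKO libraries (-0.15, SE 0.09, edgeR adjusted p = 0.469). The DKO libraries were also below both AnkGKO libraries (-0.50, SE 0.10, edgeR adjusted p = 0.137), and neither difference was called. Group names below are those of the labels, and the main counts were repeated without Control 1 and NFKO 1.

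The machinery was expressed at high level in every library. The 68 members together took 1.94% to 2.02% of all gene counts in Control, 1.88% to 1.91% in NFKO, 1.86% to 1.89% in AnkGKO and 1.87% to 2.02% in DKO. To compare genes with one another, CPM was divided by the length of the canonical transcript in kilobases (GENCODE vM39, GRCm39). On this scale Snap25, the plasma membrane SNARE of neurons, stood first in Control at 1540 ± 90.3 CPM per kb (SD, n = 3). It was followed by the complexin Cplx1 at 810 ± 74.1, the vesicle SNARE Vamp1 at 598 ± 59.5, Syp (synaptophysin) at 426 ± 10.5 and the vesicle GTPase Rab3a at 397 ± 16.9 CPM per kb. Vamp2 (339 ± 29.6) and Nsf (335 ± 17.4) did not differ beyond their spread. The 10 highest members held 79.3% of the summed level of all 68. The same 10 led when merged exon length was used instead, but their order and levels changed. Cplx1 then led in Control at 487 CPM per kb, ahead of Snap25 at 352, and Vamp1 was at 163 CPM per kb. At the other end, 6 members were under 1 CPM per kb. They were Syt14 (0.776 ± 0.0738), Syt15 (0.288 ± 0.273) and Stx11 (0.113 ± 0.0995), and Cplx3, Cplx4 and Syt8, whose levels lay near the counting floor.

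**Figure D1:**
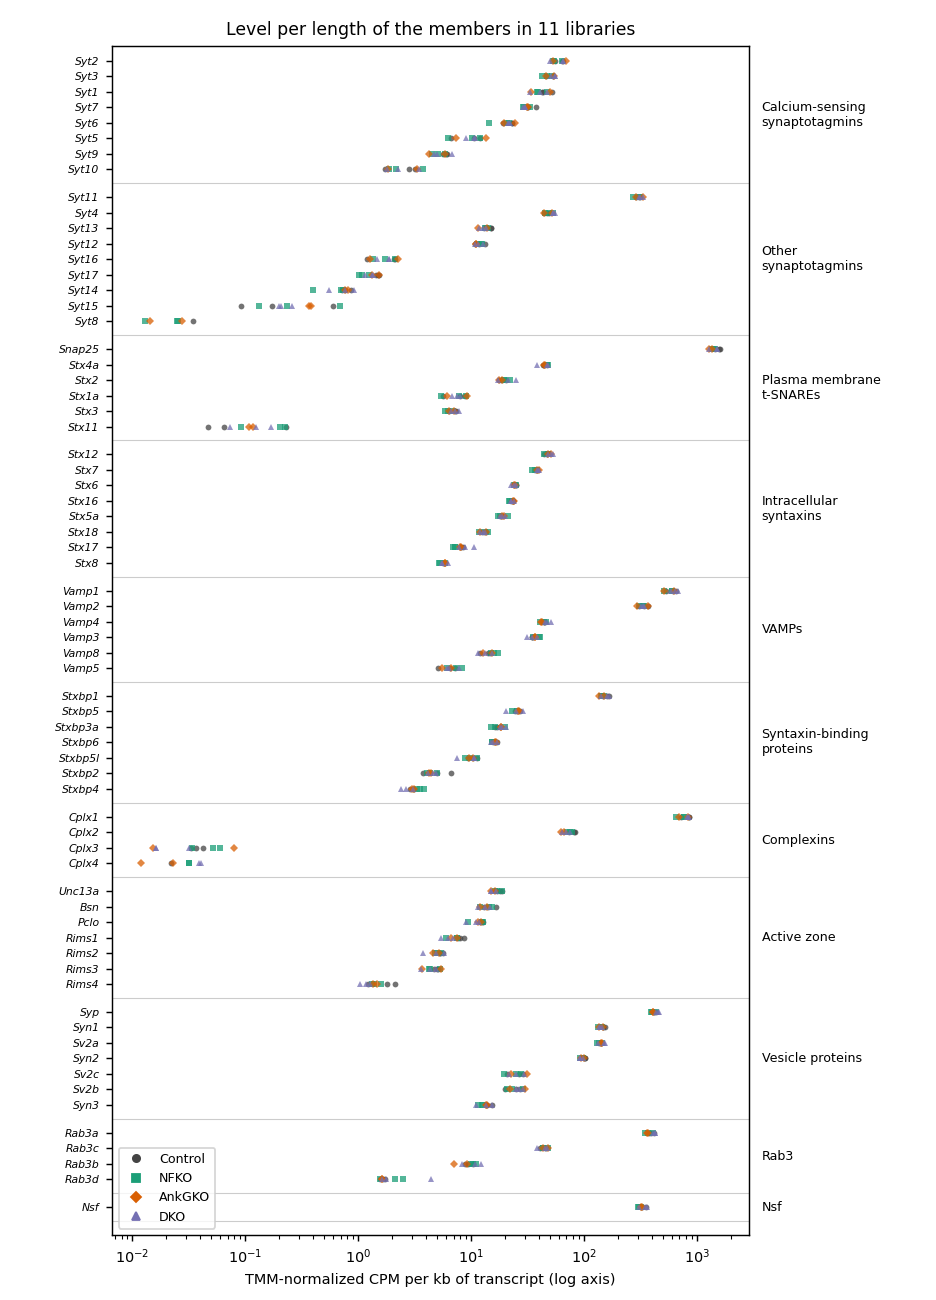
Level per length of the members. The horizontal log axis gives TMM-normalized CPM per kilobase of canonical transcript, each row is 1 member, grouped by role, and each point is 1 library marked by genotype, with values of 0 not drawn. Points of the 4 genotypes lie on top of one another for nearly all members, with Snap25 at the right edge and Cplx3, Cplx4 and Syt8 at the left.

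Against Control, no member was called in NFKO, AnkGKO or DKO, where a call needed both an edgeR quasi-likelihood adjusted p under 0.05 and a log2 fold change of 0.6 or more in either direction. Over all genes the share called was 0.365% for NFKO, 0.165% for AnkGKO and 0.0228% for DKO, and a count of 0 among 68 genes does not stand apart from such shares. At an unadjusted p under 0.05, 3 of 68 members passed in NFKO (4.41%, against 7.69% of all genes), 3 in AnkGKO (4.41% against 5.39%) and 6 in DKO (8.82% against 7.77%). The median log2 fold change of the members was -0.06 in NFKO, -0.03 in AnkGKO and -0.02 in DKO, beside -0.0050, -0.0050 and -0.00062 over all genes. These shifts compare with an SD of 0.033 between libraries of a genotype in the median over the members. In bulk RNA, fewer cells of a type and less RNA per cell cannot be told apart. Without Control 1 and NFKO 1 the number of members called was again 0 in each comparison, and the medians were -0.05, -0.03 and -0.03. The DKO median turned to 0.01 without DKO 2.

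Changes of the abundant members were bounded tightly. Among the 57 members with a mean of at least 10 CPM, the 95% interval of the log2 fold change lay within ±0.6 for 55 in NFKO (96.5%), 53 in AnkGKO (93.0%) and 54 in DKO (94.7%). The same held for 93.4%, 92.0% and 92.7% of all genes at that level. Syt5 and Syt16 lay outside in all 3 comparisons, and Stxbp2 and Syt9 did so in AnkGKO and Rims1 in DKO. All 24 genes of the neuronal release core, a list of the main presynaptic isoforms, were within ±0.6 in NFKO and AnkGKO, and 23 were in DKO. Their median log2 fold change was -0.09 in NFKO, -0.07 in AnkGKO and -0.03 in DKO. The 3 comparisons share the Control libraries, so their values are set side by side and not combined.

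**Figure D2:**
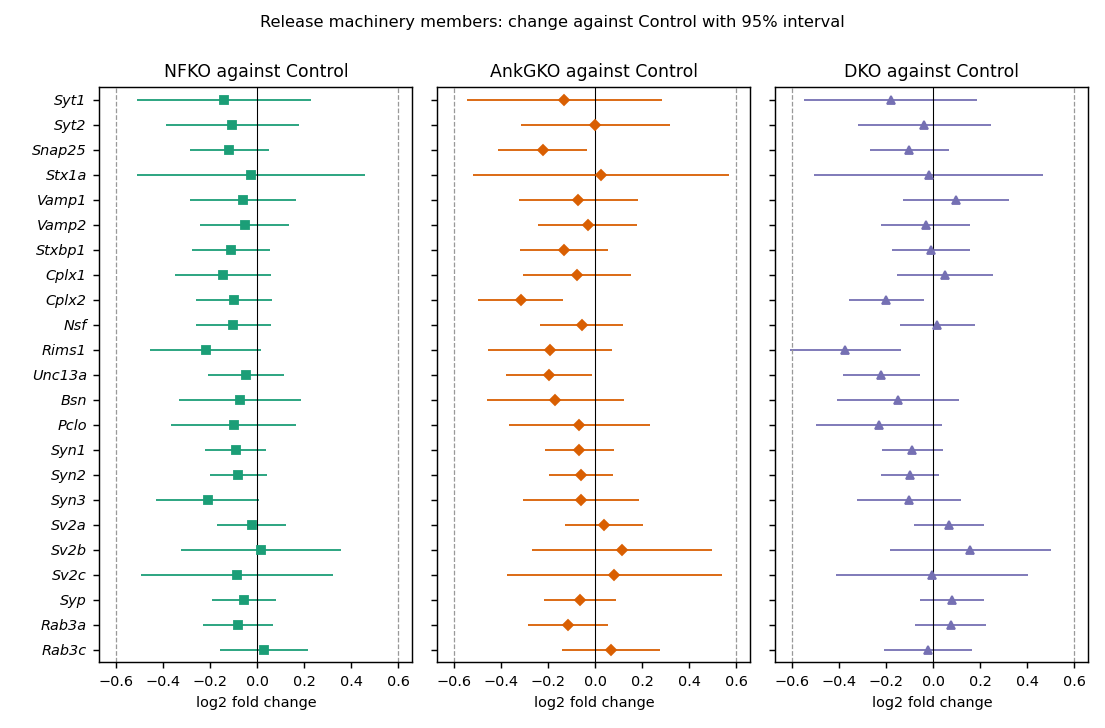
Change of 23 of the 24 core release genes against Control. The horizontal axes give the log2 fold change from edgeR, points are estimates, bars are 95% intervals and dashed lines mark the threshold of 0.6 in either direction. Every interval drawn is inside the dashed lines except that of Rims1 in DKO, which reaches -0.61.

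The plasma membrane SNAREs were led by Snap25 (chromosome 2, 136533580 to 136624362 of GRCm39). Snap25 was at 3619, 3285 and 3663 CPM in Control, 3325, 3141 and 3268 in NFKO, 2931 and 3105 in AnkGKO, and 3477, 2951 and 3421 in DKO. Both AnkGKO libraries were below all Control libraries, whereas NFKO and DKO overlapped with Control. The log2 fold change was -0.22 in AnkGKO (95% interval -0.41 to -0.03, edgeR adjusted p = 0.783), -0.12 in NFKO (-0.29 to 0.05, adjusted p = 0.853) and -0.10 in DKO (-0.27 to 0.07, adjusted p = 0.738). None of the 7 plasma membrane SNAREs was called, and 1 (Snap25 in AnkGKO) passed at an unadjusted p under 0.05 in a comparison with Control. Over all genes 7.69% passed at that level in NFKO, 5.39% in AnkGKO and 7.77% in DKO.

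Among the vesicle SNAREs, Vamp1 and Vamp2 overlapped between every knockout and Control. Vamp1 ranged from 1562 to 1905 CPM in Control and from 1500 to 1994 CPM in the knockouts, and its log2 fold change in DKO was 0.10 (95% interval -0.13 to 0.32). Vamp8, which serves endosomal fusion, was at 12.2, 11.5 and 9.88 CPM in Control and at 12.4, 14.2 and 13.2 CPM in NFKO, without overlap (log2 fold change 0.25, SE 0.13, edgeR adjusted p = 0.737). Vamp4 was at 67.5 to 69.4 CPM in Control and 69.6 to 78.9 CPM in DKO (0.11, SE 0.06, edgeR adjusted p = 0.670).

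The calcium sensors of fast release, Syt1 and Syt2, were not called. Syt2 was at 473, 404 and 464 CPM in Control, 467, 395 and 385 in NFKO, 389 and 506 in AnkGKO, and 474, 364 and 470 in DKO. The AnkGKO pair spanned more than the whole Control range, and the log2 fold change there was 0.00095 with a 95% interval of -0.31 to 0.32. Syt7, the sensor linked to slower release, was at 234 to 278 CPM in Control and 215 to 222 CPM in DKO (log2 fold change -0.19, SE 0.08, edgeR adjusted p = 0.619). Syt4, a synaptotagmin that does not bind calcium in its first C2 domain, was at 190, 172 and 182 CPM in Control and at 218, 209 and 210 CPM in DKO. All 3 DKO libraries lay above Control (0.23, SE 0.08, edgeR adjusted p = 0.588). Syt17 was low, at 4.91 to 5.19 CPM in Control and 3.42 to 4.23 CPM in NFKO, and had the smallest p of any member there (-0.42, SE 0.13, edgeR adjusted p = 0.394).

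Complexins clamp and then assist fusion. Cplx2 (chromosome 13, 54519154 to 54531730) was at 411, 405 and 366 CPM in Control, 384, 369 and 351 in NFKO, 327 and 306 in AnkGKO, and 370, 315 and 346 in DKO. The AnkGKO libraries were below all Control libraries, and DKO 1 overlapped with Control. In AnkGKO the log2 fold change was -0.32 (95% interval -0.50 to -0.13), the smallest p of any member in that comparison, with an edgeR adjusted p of 0.332. DESeq2 gave an adjusted p of 0.0206 for it with a log2 fold change of -0.31, under the fold threshold. Cplx1 was at 1593 to 1886 CPM in Control and 1445 to 1887 CPM in the knockouts and overlapped with Control in each.

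Of the 7 active zone genes, 0 had a positive log2 fold change in NFKO, AnkGKO or DKO, and none was called. Over all genes 48.2%, 48.7% and 49.8% were positive, and the 3 comparisons share their Control libraries. Signs over the 20 fits were followed for Rims1, Unc13a, Bsn and Pclo but not for Rims2, Rims3 and Rims4. In NFKO, Bsn and Unc13a turned positive in 2 of 20 fits and Pclo in 1. The median of the 7 genes was -0.10 in NFKO, -0.17 in AnkGKO and -0.22 in DKO. Of the 7, 0, 1 and 3 passed at an unadjusted p under 0.05, beside 7.69%, 5.39% and 7.77% of all genes. Rims1 (chromosome 1, 22356133 to 22845686), a scaffold that ties vesicles to calcium channels, was at 71.5, 62.7 and 65.7 CPM in Control, 61.5, 61.3 and 49.0 in NFKO, 55.1 and 61.7 in AnkGKO, and 51.9, 44.8 and 57.4 in DKO. Every knockout library lay below every Control library. The log2 fold change was -0.22 in NFKO (SE 0.11, edgeR adjusted p = 0.698), -0.19 in AnkGKO (SE 0.12, adjusted p = 0.998) and -0.37 in DKO (SE 0.11, adjusted p = 0.562). Over 20 fits the DKO value lay between -0.46 and -0.29, and its smallest adjusted p was 0.0693 with DESeq2. The NFKO value lay between -0.27 and -0.12, the latter without NFKO 3, and the AnkGKO value between -0.27 and -0.11, the latter without AnkGKO 1. Unc13a, which encodes the priming factor Munc13-1, was at 184 to 204 CPM in Control, 163 and 177 CPM in AnkGKO and 161 to 180 CPM in DKO. Its log2 fold change was -0.20 in AnkGKO (edgeR adjusted p = 0.861) and -0.22 in DKO (edgeR adjusted p = 0.588). Pclo was at 242 to 256 CPM in Control and 181 to 236 CPM in DKO (-0.23, SE 0.12, edgeR adjusted p = 0.661), and Bsn overlapped with Control in each knockout. Rims4, at 6.02 to 10.5 CPM in Control and 5.16 to 6.32 CPM in DKO, overlapped between the groups (-0.56, SE 0.18, edgeR adjusted p = 0.588).

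None of the 7 vesicle protein genes was called, and their log2 fold changes were -0.21 to 0.02 in NFKO, -0.07 to 0.11 in AnkGKO and -0.10 to 0.16 in DKO. Syn3, a synapsin, was at 122, 118 and 134 CPM in Control and at 101 to 112 CPM in NFKO, without overlap (-0.21, SE 0.10, edgeR adjusted p = 0.677), while AnkGKO and DKO overlapped with Control. Syn2 (chromosome 6, 115111825 to 115261708), a synapsin that tethers the reserve pool of vesicles, was at 340, 343 and 345 CPM in Control, 310, 332 and 331 in NFKO, 338 and 320 in AnkGKO, and 312, 315 and 334 in DKO. All 8 knockout libraries were below all 3 Control libraries, by a margin of a few CPM in AnkGKO 1. The log2 fold change was -0.08 in NFKO, -0.06 in AnkGKO and -0.10 in DKO (SE 0.06 in each, edgeR adjusted p = 0.880, 0.998 and 0.668). Syp was at 1086 to 1135 CPM in Control, 1015 to 1135 in NFKO, 1055 and 1056 in AnkGKO and 1118 to 1202 in DKO, with log2 fold changes of -0.06, -0.06 and 0.08. Sv2a was at 588 to 612 CPM in Control and 561 to 665 CPM in the knockouts, with log2 fold changes of -0.02, 0.04 and 0.07. Syn1 was at 500 to 522 CPM in Control, 456 to 492 CPM in NFKO and 461 to 498 CPM in DKO, without overlap in either (-0.09 in both, edgeR adjusted p = 0.849 in NFKO).

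Counting over the members, 2 of 68 (Rims1 and Syn2) had all 8 knockout libraries below all 3 Control libraries, and 0 had them all above. The same held for 0.496% of all genes in the lower and 0.632% in the higher direction. By single comparison, 2 members were higher and 6 lower in NFKO without overlap (7.42% and 6.51% of all genes), 5 higher and 9 lower in AnkGKO (11.7% and 12.3%), and 4 higher and 8 lower in DKO (7.65% and 6.80%). Among the higher ones, Stx12, which works in endosomal fusion, had a log2 fold change of 0.09 in AnkGKO and 0.13 in DKO. Stxbp3a, a Munc18 relative of non-neuronal exocytosis, had 0.10 and 0.16. None of these differences passed the test.

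**Figure D3:**
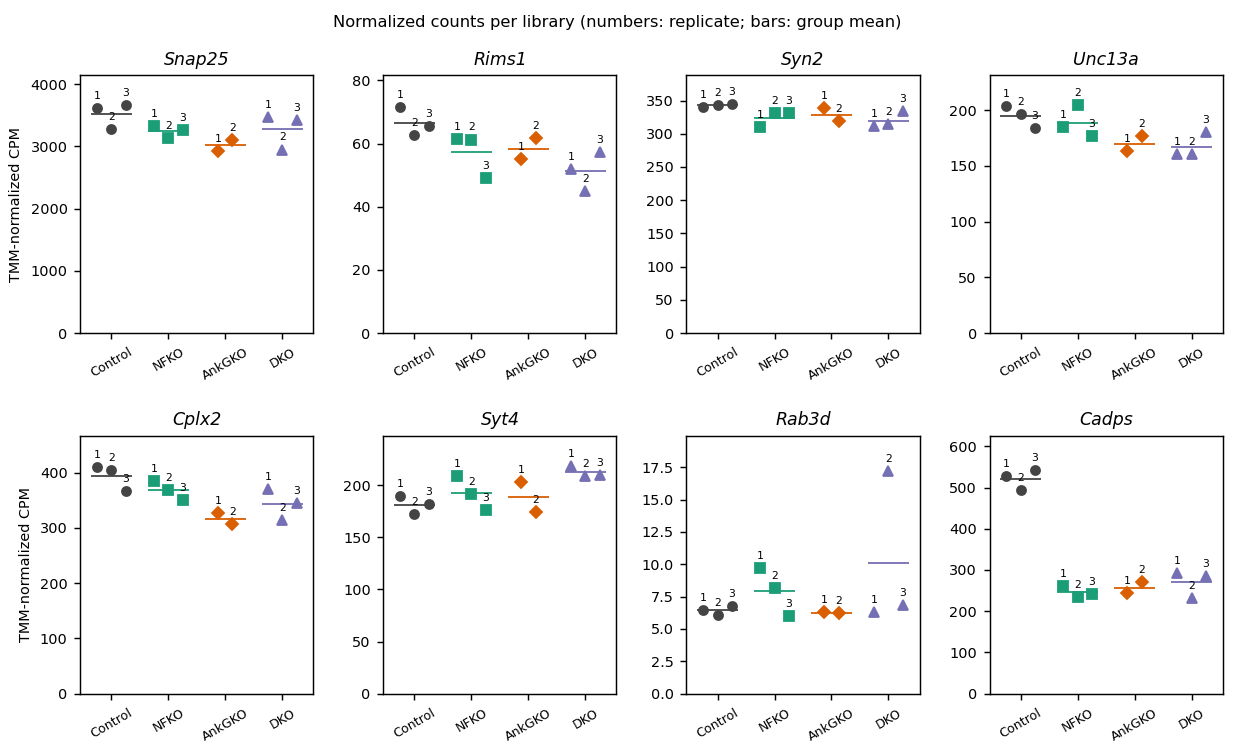
Normalized counts in each library for 7 members and for Cadps, a gene outside the members. The vertical axes give TMM-normalized CPM from 0, points are libraries labelled by replicate number and bars are group means. Rims1 and Syn2 are lower in all knockout libraries by small amounts, Rab3d is high in DKO 2, and Cadps in every knockout library is well below its 494 to 542 CPM in Control.

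The Syn1 promoter is a well known example of neuron-restricted control, through an RE1 element bound by the repressor REST, and it is printed here to show that element beside a cyclic AMP response element (CRE). Promoter windows of 300 bases (250 before and 50 after the start, RefSeq, GRCm38.p6) were found for 53 of the 68 members, in 69 windows. The RE1 half-site TTCAGCACC was found on either strand in 2 member windows, those of Syn1 and Unc13a, or 2.90% beside 0.371% of all 32851 windows. The CRE, TGACGTCA, was in 2 member windows, those of Syn1 and Stxbp3 (listed as Stxbp3a in the counts), or 2.90% beside 1.79% of all windows. Capitals mark the motif, and a match is a description of the letters only. The Syn1 stretches are chrX:20921112-20921168 and chrX:20921040-20921107, and that of Stxbp3 is chr3:108840573-108840640, all on the minus strand.
Syn1 RE1: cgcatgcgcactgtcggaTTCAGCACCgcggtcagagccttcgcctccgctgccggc
Syn1 CRE: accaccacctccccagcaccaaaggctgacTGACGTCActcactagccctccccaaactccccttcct
Stxbp3 CRE: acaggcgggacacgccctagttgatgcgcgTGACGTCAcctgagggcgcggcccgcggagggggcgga
Of these 3 genes, the levels of Syn1 and Unc13a are given above, and Stxbp3a was at 40.9 to 45.3 CPM in Control and 37.1 to 51.0 CPM in the knockouts.

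The question of whether the double loss differs from either single loss was addressed by DKO against each single knockout and by the interaction of the knockouts (DKO minus NFKO minus AnkGKO plus Control, on the log2 scale). No member was called in DKO against NFKO, DKO against AnkGKO or the interaction, where 0.615%, 0.171% and 0.530% of all genes were called. At an unadjusted p under 0.05, 6, 3 and 3 members passed (8.82%, 4.41% and 4.41%, against 16.2%, 8.48% and 10.3% of all genes). The smallest p belonged to a pair outside the release core. Stxbp4 (chromosome 11, 90354206 to 90529452), a syntaxin 4 binding protein, was at 20.6, 24.0 and 21.9 CPM in NFKO and at 15.1, 16.5 and 19.1 CPM in DKO. Its log2 fold change between these groups was -0.39 (SE 0.10, edgeR adjusted p = 0.0999). Control was at 17.8 to 19.6 CPM, below every NFKO library and overlapping with DKO. Stx17 (chromosome 4, 48124908 to 48186507), the syntaxin of autophagosome fusion, was at 39.9, 41.8 and 41.3 CPM in NFKO and at 61.3, 45.3 and 50.9 CPM in DKO (0.36, SE 0.09, edgeR adjusted p = 0.114). DESeq2 gave adjusted p-values of 0.00479 for Stxbp4 and 0.00818 for Stx17 in this comparison, and edgeR gave 0.0261 for Stx17 without DKO 2, all under the fold threshold. The interaction was -0.42 for Stxbp4 and 0.39 for Stx17 (edgeR adjusted p = 0.336 and 0.349). For Rab3a it was 0.27 (SE 0.10, edgeR adjusted p = 0.384). Rab3a was at 548 to 597 CPM in Control, 497 to 591 in NFKO, 521 and 536 in AnkGKO and 585 to 614 in DKO.

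The members did vary between libraries of the same genotype. Among those with at least 10 CPM, the median SD within genotype was 0.115 on the log2 scale (57 members), beside 0.105 over all 10239 genes at that level. The widest were Syt5 (0.43), Syt16 (0.39), Stx1a (0.32) and Sv2c (0.26), with Syt1 at 0.23 and Syt2 at 0.19, and the narrowest were Stx16 (0.044) and Syn2 (0.047). Of the members below that level, Syt15 (0.94), Syt10 (0.50) and Rab3d (0.47) were the widest among those above 1 CPM. These members were singled out after their values had been seen and are described without a test.

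The balance of some paralogs differed between libraries of one genotype. Syt2 made up 51.8% of the summed CPM per kb of Syt2 and Syt1 in Control 2, 53.5% in NFKO 2 and 51.8% in AnkGKO 1. In the other 8 libraries it made up 57.5% to 67.2%, with AnkGKO 2 the highest. The same 3 libraries had the lowest share of Vamp1 against Vamp2, at 59.1%, 60.6% and 58.3%, beside 63.8% to 67.8% in the rest. The share of Cplx1 against Cplx2 was lowest in Control 2 and NFKO 2 (89.8% in both), whereas AnkGKO 1 stood at 91.3%. Other pairs did not all follow. The share of Sv2c against Sv2b was 51.2%, 54.2% and 50.8% in Control 2, NFKO 2 and AnkGKO 1, within or above the 45.9% to 53.6% of the rest, and that of Rims1 against Rims2 was 57.5%, 59.7% and 56.5%, within their 52.2% to 62.1%. The share of Rab3a against Rab3c was 89.2%, 87.8% and 88.2% there and 89.5% to 91.4% in the rest, and Syn1 against Syn2 spanned 57.9% to 61.0% over all 11 libraries. By genotype the share of Syt2 was 57.3% ± 4.82 in Control (SD, n = 3), 57.9% ± 4.56 in NFKO (n = 3), 59.5% ± 10.9 in AnkGKO (n = 2) and 59.8% ± 1.63 in DKO (n = 3), differences smaller than the spread.

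**Figure D4:**
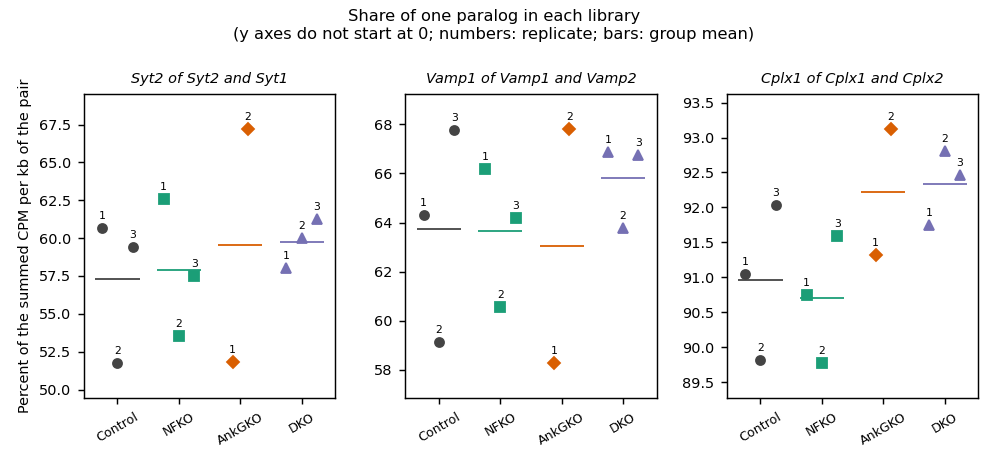
Share of 1 paralog of 3 pairs in each library. The vertical axes give the percent of the summed CPM per kb of the pair and do not start at 0, points are libraries labelled by replicate number and bars are group means. Control 2, NFKO 2 and AnkGKO 1 sit lowest for Syt2 and Vamp1, while the genotype means lie close together.

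Some marker sums of Control 2, NFKO 2 and AnkGKO 1 lay apart from those of the rest and others did not. The summed level of 6 motor neuron markers was 217 CPM in Control 2, 239 in NFKO 2 and 266 in AnkGKO 1, beside 302 to 597 CPM in the other libraries. The summed level of the 8 measured neuronal markers was 7134, 7111 and 7262 CPM in the same 3 libraries and 8437 to 11105 CPM in the others. The 12 caudal Hox genes summed to 395, 496 and 480 CPM there and to 522 to 615 CPM elsewhere. Of these, Hoxc8, chosen after its values were seen, was at 7.99, 22.0 and 32.2 CPM there and at 72.8 to 159 CPM elsewhere. The sums of the oligodendrocyte, astrocyte, microglia and Schwann cell markers overlapped between these libraries and the rest. The part of these differences in the paralog shares was not tested. Control 1 and NFKO 1, which were high in Purkinje and granule cell markers, had Syt2 shares of 60.7% and 62.6%.

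Rab3d, a Rab3 of secretory cells, was at 17.2 CPM in DKO 2 and 6.02 to 9.70 CPM in the other 10 libraries. Its log2 fold change in DKO was 0.65 with a 95% interval of -0.13 to 1.43. Stx2 was likewise highest in DKO 2, at 26.9 CPM beside 18.6 to 23.6 CPM. Muscle markers summed to 150 CPM in DKO 2 and to 1.89 to 309 CPM over all libraries. The highest sum was that of NFKO 2, where Rab3d was within the 6.02 to 9.70 CPM given above. The part of muscle RNA in the level of Rab3d was not tested.

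**Figure D5:**
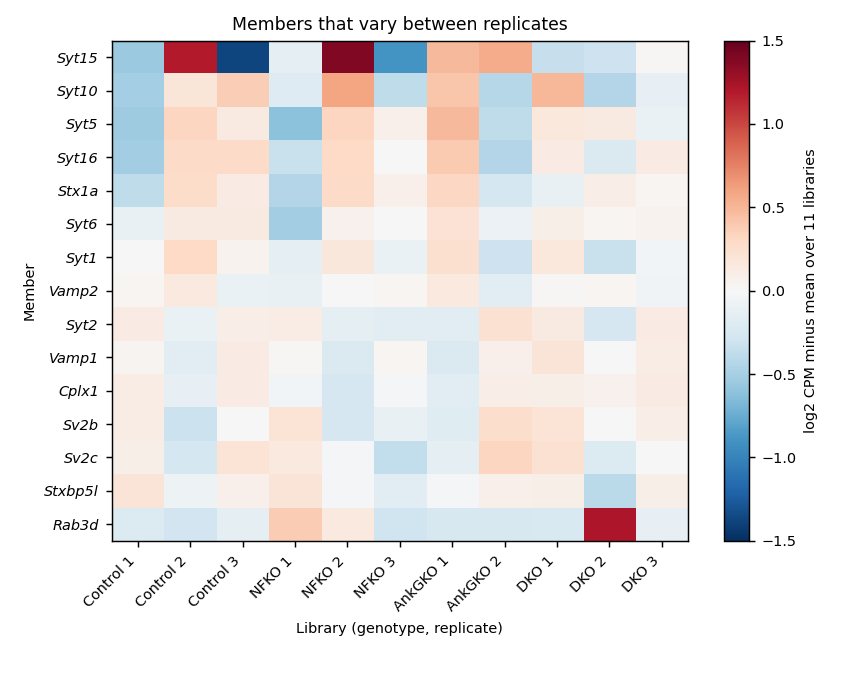
Deviation of 15 members from their mean over the 11 libraries. Columns are libraries, rows are members and colour gives the difference in log2 CPM, limited to 1.5 in either direction. Syt5, Stx1a and Syt1 are high in Control 2, NFKO 2 and AnkGKO 1, where Vamp1 and Cplx1 are low, and Rab3d stands out in DKO 2.

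Partner genes of the same pathway were examined in 6 lists of 83 measured genes (other SNAREs and SNAPs, priming and active zone, vesicle membrane, vesicle transporters, endocytosis, and dense core vesicles). These lists were chosen with earlier results of these data known. Of the 83, 1 was called lower and 0 higher in each comparison with Control, and the gene was Cadps in each. Over all genes the share called was 0.365% for NFKO, 0.165% for AnkGKO and 0.0228% for DKO. Cadps encodes CAPS1, which primes dense core and synaptic vesicles. It was at 529, 494 and 542 CPM in Control, 262, 234 and 241 in NFKO, 244 and 270 in AnkGKO, and 292, 232 and 286 in DKO. Every knockout library was below every Control library, and the 3 knockouts overlapped with each other. The log2 fold change was -1.09 in NFKO (SE 0.09, edgeR adjusted p = 0.000131), -1.02 in AnkGKO (SE 0.10, edgeR adjusted p = 0.00108) and -0.95 in DKO (SE 0.09, edgeR adjusted p = 0.00129). The interaction was 1.16 (SE 0.13, edgeR adjusted p = 0.00144), so the value in DKO was smaller in size than the sum of those in the single knockouts. No other gene of the 83 was called in the reported fit. Ptprn had an edgeR adjusted p of 0.0472 in DKO against NFKO, with a log2 fold change of 0.28, under the fold threshold. Slc17a8 was called in the interaction in 1 of 19 fits. The median log2 fold change of the 83 was -0.05 in NFKO, -0.04 in AnkGKO and 0.01 in DKO. Of the 83, 3, 6 and 9 passed at an unadjusted p under 0.05 (3.61%, 7.23% and 10.8%, beside 7.69%, 5.39% and 7.77% of all genes). The 19 priming and active zone partners, Cadps among them, had medians of -0.09, -0.15 and -0.19. The 13 endocytosis genes had medians of -0.05, 0.0027 and -0.0019, and the 17 vesicle membrane genes -0.05, -0.03 and 0.05.

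Some counts may include reads of an overlapping gene, because strand use in the counting is not given in the sources used here. By the GENCODE annotation, another gene lay over 55.2% of the canonical exon sequence of Stx3, 37.5% of Rab3a, 35.5% of Syn3, 33.8% of Syp and 25.5% of Unc13a. For Snap25, Cplx2, Stx17 and Sv2a it was 0%, and for Rims1 1.70%.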

How the data were processed

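Bulk RNA-seq of polyadenylated RNA was analysed from 11 libraries grouped by their genotype labels. By the submitters' processing notes and the study's methods, the authors used FastQC 0.12.1, Trimmomatic 0.39, STAR 2.7.11a (GRCm39) and DESeq2 1.40.2 in R 4.3.2. They deposited raw read counts per gene. The authors also deposited normalized signal (counts divided by a size factor), which served only to check the factors. The summary lines of the count table, 42.7% to 43.8% of its reads, were left out.

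Every gene whose counts summed to 10 or more entered the tests, made in R 4.3.3 with edgeR 4.0.16 (TMM, robust quasi-likelihood fit over the 4 genotypes, Benjamini-Hochberg adjustment over all genes tested). A call needed an adjusted p under 0.05 together with a log2 fold change of 0.6 or more in either direction. The procedure was tested on simulated data. The labels call the replicates biological, and p-values measure the spread between these libraries. Positions and lengths came from GENCODE vM39.

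Members and gene lists were chosen with earlier results of these data known. Named are the release core, members called, up to 5 higher and 5 lower members per comparison with Control without overlap and with the smallest p, extremes in level, and called pathway genes. Others were named after their values were seen. Alternatives were DESeq2 1.42.0 (local fit), its size factors, other filters, fewer libraries, no fold threshold, an Xist covariate, a replicate block and leaving out libraries. Merged exon length was added after seeing the data. Deviations of Control and NFKO libraries with the same number were correlated (r = 0.63, 0.46 and 0.27 across genes). Libraries of different number were correlated too, such as Control 2 with AnkGKO 1 (r = 0.48) and Control 3 with DKO 1 (r = 0.38). Control and AnkGKO libraries of the same number had r of -0.33 and -0.48. These values do not establish that libraries are paired by number. Labels give single-end reads of 100 bp, the methods paired ends, and the methods 3 AnkGKO mice. The values of 1 member are not reported here. Gene ontology, imaging and behaviour were not analysed here.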

Additional observations from a re-analysis of the deposited data

How the results depend on the processing

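The number of members called was 0 in all 6 comparisons under each of the 20 alternatives run (19 for the interaction, where only the libraries compared could not be fitted), the replicate block and DESeq2 included. The replicate block ties libraries of the same number in all groups. With it, 0 members were called in NFKO against Control, and the median log2 fold change of the members was -0.06. The block changed no call of a member. Leaving out each library in turn gave 0 to 0 members called. The medians moved beyond the spread between libraries in DKO against NFKO (0.06 with the Xist covariate, 0.08 without DKO replicate 2), DKO against AnkGKO (0.03 without AnkGKO replicate 1, 0.05 without DKO replicate 2) and the interaction (0.11 with the Xist covariate, 0.10 without DKO replicate 2). The cause was not tested. In DKO against AnkGKO the reported median was -0.01, of the opposite sign. No log2 fold change of a member named by its smallest p changed sign, whereas values of core genes near 0 did, such as Syt2 in AnkGKO (-0.20 to 0.18). With merged exon length the Control share of Syt2 was 73.7%, of Vamp1 62.3% and of Cplx1 85.8%. Members under 1 CPM, such as Syt8 and Cplx4, rest on a few counts per library, and their changes were not detectable at this depth. AnkGKO has 2 libraries, which widens its intervals.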
